A study of Mus musculus with 24 samples.

Results

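The clustered protocadherins are neighbouring genes for cell adhesion proteins, and here they were followed by subcluster and by position in the locus through the retinas of 8 inbred mouse strains. Members were the genes whose symbols begin with Pcdha, Pcdhb or Pcdhg and a digit, or with Pcdhac, Pcdhga, Pcdhgb or Pcdhgc and a digit. This gave 57 of the 28,802 genes in the table, with 13 in the alpha, 22 in the beta and 22 in the gamma subcluster. Of these, 56 had a mean level of at least 0.5 cpm over all libraries and were tested, and Pcdhb1 did not. The unit cpm scales the reads of a gene by the total reads of its library.

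Total RNA of whole retinas, freed of ribosomal RNA, had been sequenced in 24 libraries, 3 biological replicates for each strain. All mice were wild type and 28 days old. The founders of the Collaborative Cross were used, namely the laboratory strains A/J, NOD/ShiLtJ, NZO/HlLtJ, 129S1/Svlmj and C57BL/6J, and WSB/EiJ, PWK/PhJ and CAST/EiJ, which are derived from wild mice. PWK/PhJ and CAST/EiJ come from other subspecies than most laboratory strains, and the genome to which the reads had been aligned is that of C57BL/6J. The libraries held 57,607,000 to 78,150,000 reads, as given by the step of 1 read between low values, so that a level of 0.5 cpm stood for 28.8 to 39.1 reads. In 3 libraries RNA of the lens stood out, with 8 lens markers, led by Cryaa, summing to 1630.1 cpm in replicate 2 of 129S1/Svlmj, 1867 cpm in replicate 2 of NOD/ShiLtJ and 217 cpm in replicate 2 of C57BL/6J, against at most 86.7 cpm in the other 21.

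Clustered protocadherins give each neuron a surface identity. A neuron transcribes a few of the many alternative first exons, each read from its own promoter, and the proteins pair with like proteins on other cells, so that branches of the same cell recognise and avoid each other. In the retina the gamma genes are known for the spacing of starburst amacrine cell dendrites and for the survival of inhibitory interneurons. Promoter choice in the numbered alpha, beta and gamma genes is largely random from cell to cell and depends on DNA methylation and on loops held by CTCF and cohesin, whereas the C-type genes at the end of the alpha and gamma subclusters are used more evenly by most neurons of a given type.

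The members lay between positions 36930184 and 37841873 of chromosome 18 (GRCm38), all on the forward strand, in the order alpha, beta, gamma. Alpha members spanned 36930184 to 37187661, beta members 37264938 to 37524479 and gamma members 37661793 to 37841873. The study's methods name RefSeq, while the spans of all 57 members in the table match GENCODE M21, so which annotation was used for counting is not settled. Lengths and exons here are those of GENCODE M21, where each alpha or gamma transcript has 4 exons, a variable first exon followed by 3 constant exons used by the whole subcluster, and each beta gene has a single exon. The part of the longest coding transcript shared in position with other members was 48.6% to 54.9% of the bases for alpha members and 41.7% to 66.8% for gamma members. Reads from constant exons had been divided among members by the authors' expectation-maximization model, so values of neighbouring alpha or gamma members are estimates that depend on each other.

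Of the 31-base words in each transcript, 77.5% to 100% occurred in no other gene for beta members, against 2.17% to 51.6% for alpha and 32.2% to 58.3% for gamma members. Pcdha4 had the smallest unique part, because an annotated read-through gene (Gm42416) begins within its first exon, and its level is uncertain. The row named Pcdha11 starts at 37005203 and covers 2 GENCODE gene identifiers of that symbol, the first at the place where RefSeq has Pcdha10, so it stands for both and was left out of comparisons by length. Pcdhb21 and Pcdhb22 overlap by position on the same strand. Beta levels that came out as whole numbers of reads (within 0.02 of a read) made up 22.7% of the 22 values per CAST/EiJ library on average, 39.4% in 129S1/Svlmj, 40.9% in PWK/PhJ, 43.9% in WSB/EiJ, 48.5% in NOD/ShiLtJ, 50% in A/J, 50% in NZO/HlLtJ and 65.2% in C57BL/6J. By library the share was 18.2% to 27.3% in CAST/EiJ, 59.1% to 72.7% in C57BL/6J and 31.8% to 59.1% in the other strains. Libraries of CAST/EiJ thus stood apart, and no difference between strains in this share was tested. The part of the division of shared reads in the strain differences was not tested. Nor was that of mismatches between strain sequences and the C57BL/6J genome in alignment, and neither can be assessed from the deposited values.

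By median, gamma members had the highest levels per length of transcript. Their mean over all libraries had a median of 2.498 cpm per kb over 22 members, against 1.67 cpm per kb over 22 beta and 0.656 cpm per kb over 12 alpha members. With GENCODE M21 lengths the scale ran from 0.0872 cpm per kb for Pcdhb1, the first beta gene, to 4.15 cpm per kb for Pcdhgb5. RefSeq gives some beta genes earlier ends, such as Pcdhb17 at 37488290 in place of 37489454 and Pcdhb22 at 37521419 in place of 37524479. Levels per length were not computed with RefSeq lengths, and the order at the top may differ with them. Pcdhb17 (4.14 cpm per kb), Pcdhb16 (3.81) and Pcdhb19 (3.17) near the 3′ end of the beta subcluster were its highest, while Pcdhb2 to Pcdhb5 at its 5′ end reached 0.733, 0.966, 1.57 and 0.878 cpm per kb. Not all of the 3′ part was high, with Pcdhb14 at 1.42, Pcdhb15 at 1.54, Pcdhb21 at 1.60 and Pcdhb22 at 1.89 cpm per kb. Pcdhb18 (2.78) and Pcdhb20 (2.38) lay in between. Among the numbered alpha members with a level by length, Pcdha1, the first in the locus, was lowest (0.192 cpm per kb). Pcdha7 was highest of these (0.922 cpm per kb), below the C-type Pcdhac2 (1.49 cpm per kb). The Pcdha11 row, with a mean of 10.5 cpm for its 2 identifiers, is not in this ranking, and a gene in it may lie above Pcdha7.

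The summed level of a subcluster varied most for beta members. The 129S1/Svlmj libraries had beta sums of 233, 229.5 and 248 cpm and the A/J libraries 229.5, 237 and 249 cpm, while the CAST/EiJ libraries had 128, 133 and 138 cpm and the PWK/PhJ libraries 137, 149.6 and 138 cpm. In the remaining 4 strains the mean beta sum lay between 178 ± 2.46 cpm in NOD/ShiLtJ and 186 ± 6.63 cpm in NZO/HlLtJ (SD, n = 3). Libraries of 129S1/Svlmj and A/J did not overlap with those of any other strain, nor did those of CAST/EiJ and PWK/PhJ, while 129S1/Svlmj and A/J overlapped with each other, as did CAST/EiJ and PWK/PhJ. Relative to the mean of the 8 strains, the beta sum was 1.28 in 129S1/Svlmj, 1.29 in A/J, 0.721 in CAST/EiJ and 0.765 in PWK/PhJ. These are sums over members and were not tested, and in bulk retina fewer cells of a type and less RNA per cell cannot be told apart.

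Alpha sums had another order of strains. They were 70.9, 73.1 and 66.8 cpm in PWK/PhJ, all above the other 21 libraries, and 61.5, 59.001 and 60.8 cpm in WSB/EiJ. A/J had the lowest mean, 49.99 ± 1.87 cpm (SD, n = 3), with 50.8 ± 1.65 cpm in NOD/ShiLtJ, 51.95 ± 2.19 cpm in C57BL/6J, 53.1 ± 1.53 cpm in NZO/HlLtJ, 55.05 ± 0.365 cpm in 129S1/Svlmj and 57.5 ± 1.42 cpm in CAST/EiJ. Gamma sums differed least. A/J had 298, 303 and 284 cpm, above all other libraries. With median-ratio scaling this separation was lost, as replicate 3 of A/J was at 278 cpm and replicate 2 of WSB/EiJ at 282 cpm. The other strains had means from 239 ± 9.94 cpm in NOD/ShiLtJ to 272 ± 7.04 cpm in C57BL/6J. As a share of all members' cpm, beta members thus made up 43.2% in 129S1/Svlmj and 30.9% in CAST/EiJ, and alpha members 8.57% in A/J and 15.4% in PWK/PhJ.

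**Figure D1:**
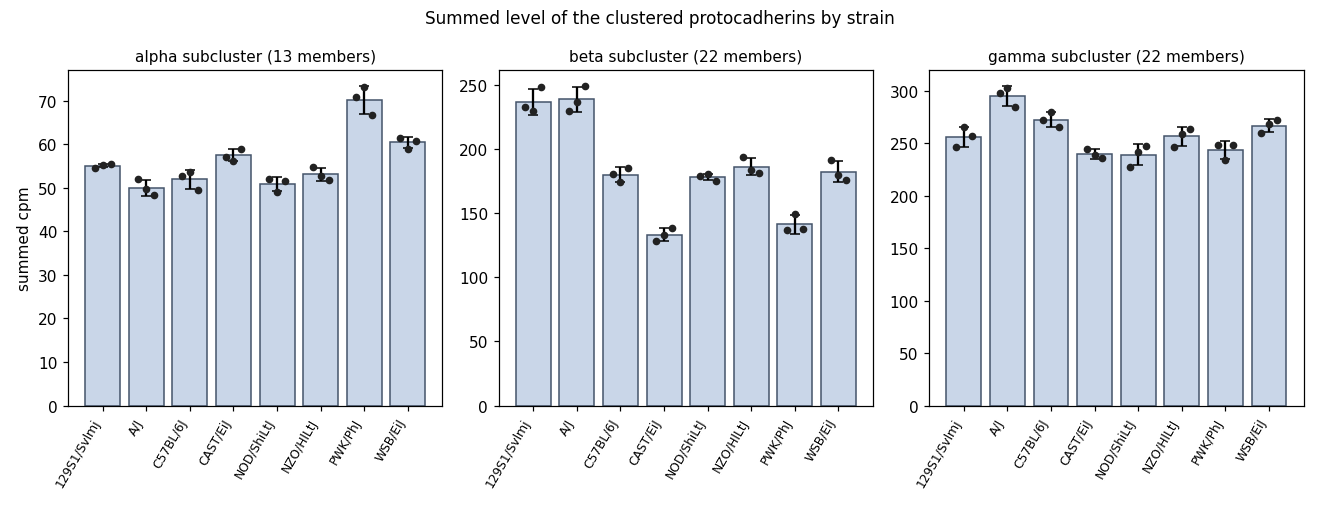
Summed level in cpm of the 13 alpha, 22 beta and 22 gamma members in each strain, with bars for the mean of 3 libraries, error bars for the SD and points for single libraries. The beta sums of 129S1/Svlmj and A/J lie above, and those of CAST/EiJ and PWK/PhJ below, all libraries of the other strains, and the alpha sums of PWK/PhJ lie above all others.

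Nearly every gene tested passed the threshold for a difference between strains, and so did the members. When limma compared all 8 strains at once (moderated F), 56 of 56 members had a q-value under 0.01, but so did 97.2% of the 16,400 genes tested, so this count is not a result about the members. The q-value limit let through members with an unadjusted p as high as 0.165. With a Benjamini-Hochberg adjusted p under 0.01, 49 of 56 members were called, against 70.6% of all genes tested. The 7 not called were Pcdha4, Pcdha9, Pcdha12 and 4 of the 5 C-type members, Pcdhac1, Pcdhgc3, Pcdhgc4 and Pcdhgc5, and the C-type member Pcdhac2 was called (adjusted p = 0.00873).

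The size of the differences separated the subclusters more than the counts did. The span from the lowest to the highest strain mean on the log2(cpm + 1) scale was 0.49 to 1.41, median 1.06, for the 21 beta members tested. It was 0.18 to 1.89, median 0.47, for the 13 alpha members and 0.23 to 0.94, median 0.46, for the 22 gamma members, and the median over all genes tested was 0.43. The value of 1.89 is that of Pcdha1, which reached the filter through the strains where it is high. The next alpha span was 1.19, for Pcdha3. The 5 C-type members spanned 0.18 to 0.42, median 0.31. The highest strain mean was that of 129S1/Svlmj for 11 and A/J for 9 of the 22 beta members, that of PWK/PhJ for 8 of the 13 alpha members, and that of A/J for 13 of the 22 gamma members. The lowest was that of CAST/EiJ for 10 beta and 9 gamma members and that of PWK/PhJ for 7 beta members.

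**Figure D2:**
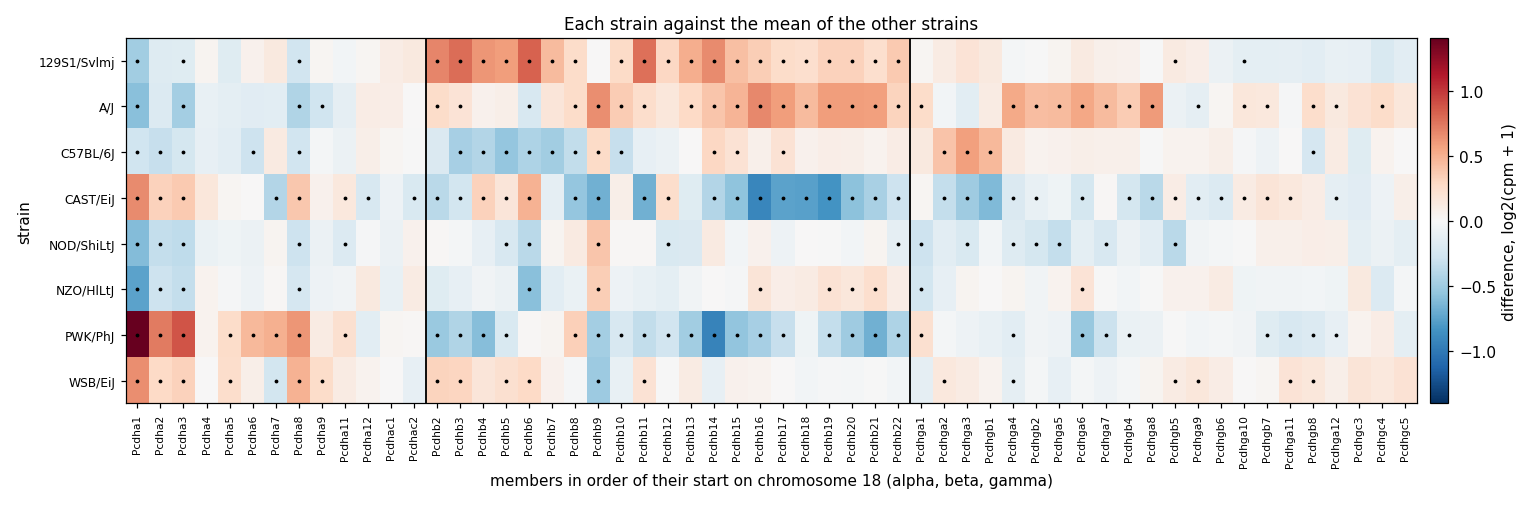
Difference of each strain (rows) from the mean of the other 7 strains on the log2(cpm + 1) scale, for the 56 members tested (columns) in the order of their starts, with lines between the alpha, beta and gamma members and dots where the q-value was under 0.01. The beta members run red in 129S1/Svlmj, mostly red in A/J and mostly blue in CAST/EiJ and PWK/PhJ, and the first alpha members are highest in PWK/PhJ, with a difference of 1.41 for Pcdha1.

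Each strain was then set against the unweighted mean of the other 7, and calls (q under 0.01) were counted by subcluster. The 8 comparisons share libraries and are not independent of each other. Pcdha1 is among the alpha calls of every strain, although it reached the filter through the strains derived from wild mice, and its calls are not used as support. For 129S1/Svlmj, 21 of 56 members were called higher and 4 lower (37.5% and 7.14%, against 14.5% and 13% of all genes tested), of which 20 of the higher calls were beta members. The lower calls, 3 of them of alpha members, numbered 1 without replicate 1 or replicate 2 of 129S1/Svlmj and 2 with Benjamini-Hochberg adjustment. The median log2 difference of the beta members was 0.37, that of all genes 0.0014. For A/J, 29 of 56 members were called higher and 6 lower (51.8% and 10.7%, against 15.1% and 12.6% of all genes tested), with 16 beta and 13 gamma members among those called higher (8 gamma members without replicate 2 of A/J) and 3 members called lower without its replicate 3. Here the median was 0.31 for beta and 0.19 for gamma members, against 0.01 for all genes.

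CAST/EiJ and PWK/PhJ were called lower in most of the beta subcluster. For CAST/EiJ, 13 of 56 members were called higher and 28 lower (23.2% and 50%, against 20.3% and 29.1% of all genes tested), with 14 of 21 beta and 11 of 22 gamma members lower. The beta median was -0.41 on the log2 scale, against -0.03 for all genes. For PWK/PhJ, 10 of 56 members were called higher and 25 lower (17.9% and 44.6%, against 26.6% and 22.8% of all genes tested), with 17 of 21 beta members lower and 8 of 13 alpha members higher. Of the 22 gamma members 8 were called lower, 3 without replicate 2 of PWK/PhJ. The PWK/PhJ medians were -0.42 for beta and 0.26 for alpha members, against 0.02 for all genes.

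The remaining 4 strains had fewer calls. For C57BL/6J, 7 of 56 members were called higher and 13 lower (12.5% and 23.2%, against 12.5% and 10% of all genes tested), with 4 beta members higher and 7 lower, and 5 alpha members lower (3 without replicate 2 of C57BL/6J). For NOD/ShiLtJ, 1 of 56 members was called higher and 16 lower (1.79% and 28.6%, against 14.9% and 9.14% of all genes tested). Those lower were 5 alpha, 4 beta and 7 gamma members, with 2 beta and 4 gamma members without replicate 1 of NOD/ShiLtJ and 3 alpha members without its replicate 3, 2 beta members with Benjamini-Hochberg adjustment and 11 gamma members with quantile normalization. For NZO/HlLtJ, 6 of 56 members were called higher and 6 lower (10.7% and 10.7%, against 12.7% and 13.2% of all genes tested), and without replicate 1 of NZO/HlLtJ 6 members were called in all, in place of 12, 3 in each direction, and 3 were called higher without its replicate 3. For WSB/EiJ, 16 of 56 members were called higher and 3 lower (28.6% and 5.36%, against 12.7% and 21.9% of all genes tested), with 6 alpha, 5 beta and 5 gamma members higher (2 gamma members without replicate 2 or replicate 3 of WSB/EiJ, with Benjamini-Hochberg adjustment or with no filter, 4 alpha members without its replicate 1). Without the 3 libraries rich in lens RNA, an alternative chosen after the data were seen, the members called numbered 21 in 129S1/Svlmj (25 with them), 14 in NOD/ShiLtJ (17) and 17 in C57BL/6J (20), with 19 beta members higher in 129S1/Svlmj. In that fit 9.89% and 13.7% in 129S1/Svlmj, 14.4% and 7.13% in NOD/ShiLtJ and 10.6% and 9.47% in C57BL/6J of all genes were called higher and lower.

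Among all genes the calls leaned to higher in NOD/ShiLtJ (2445 higher, 1499 lower) and to lower in WSB/EiJ (2077 and 3588). Median-ratio scaling made these 1985 and 1891 in NOD/ShiLtJ and 2754 and 2829 in WSB/EiJ, and the members' calls were then 1 higher and 20 lower in NOD/ShiLtJ and 20 and 2 in WSB/EiJ. With quantile normalization 47.4% of the genes called were higher in NOD/ShiLtJ, against 61.99% without it, and 49.4% in WSB/EiJ, against 36.7%, while 1 member was called higher and 21 lower in NOD/ShiLtJ and 20 and 2 in WSB/EiJ.

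Since CAST/EiJ and PWK/PhJ had low beta levels, they set part of the mean against which the other strains were compared. With both left out of that mean, 129S1/Svlmj had a majority of beta members called higher (15 of 21, with 1 lower) and so did A/J (12, with 0 lower). In C57BL/6J the beta calls became 0 higher and 10 lower, in NOD/ShiLtJ 1 and 9 in place of 1 and 4, in NZO/HlLtJ 0 and 6 in place of 5 and 1, and in WSB/EiJ 3 and 9 in place of 5 and 1. The 3 alpha members called lower in 129S1/Svlmj were not called then, and the number of alpha members called lower went from 5 to 1 in C57BL/6J, from 5 to 1 in NOD/ShiLtJ and from 4 to 1 in NZO/HlLtJ, while the gamma members called lower in NOD/ShiLtJ went from 7 to 11. Of all genes, the shares called higher and lower in this comparison were 10.3% and 10.05% in 129S1/Svlmj, 11.05% and 9.54% in A/J, 9.48% and 7.89% in C57BL/6J, 10.9% and 6.99% in NOD/ShiLtJ, 9.73% and 11.1% in NZO/HlLtJ and 11.05% and 21.2% in WSB/EiJ, so that in WSB/EiJ a lean to lower was present among all genes too. The direction of the beta calls in NZO/HlLtJ and WSB/EiJ therefore depended on the comparators.

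In the alpha subcluster the first 3 genes and Pcdha8 set the 3 wild-derived strains apart. Pcdha1, whose first exon opens the locus, was at 3.57, 3.21 and 2.88 cpm in PWK/PhJ, at 1.75, 1.36 and 1.96 cpm in CAST/EiJ and at 1.89, 1.84 and 1.29 cpm in WSB/EiJ. It was at 0.591, 0.339 and 0.632 cpm in C57BL/6J, 0.245, 0.484 and 0.285 cpm in 129S1/Svlmj and 0.248, 0.213 and 0.2996 cpm in A/J. The lowest levels were 0.245, 0.273 and 0.196 cpm in NOD/ShiLtJ and 0.0753, 0.177 and 0.147 cpm in NZO/HlLtJ. None of the 9 wild-derived libraries overlapped with the other 15, and the PWK/PhJ libraries also lay above those of CAST/EiJ and WSB/EiJ, which overlapped. The PWK/PhJ mean was 4.65 times that of the other strains, a log2 difference of 1.41 (SE 0.07, limma q = 6.1e-14). The NZO/HlLtJ mean, 0.133 ± 0.0525 cpm (SD, n = 3), was lowest, a log2 difference of -0.76 (SE 0.07, limma q = 1.3e-08), with all 3 libraries below the other 21. This difference rests largely on the wild-derived strains, through which Pcdha1 reached the filter, and was -0.43 with CAST/EiJ and PWK/PhJ left out of the comparators. Because the filter favours a gene that is high in these strains, the q-values of Pcdha1 in PWK/PhJ and NZO/HlLtJ are not used as support. The gap between the NZO/HlLtJ and NOD/ShiLtJ libraries is less than 3 reads are worth, so the place of NZO/HlLtJ below NOD/ShiLtJ is uncertain.

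Pcdha2 was also highest in PWK/PhJ, with 3.49, 3.96 and 3.69 cpm in PWK/PhJ, 2.85, 2.34 and 2.89 cpm in CAST/EiJ and 2.55, 2.62 and 2.57 cpm in WSB/EiJ, and 1.18 to 2.09 cpm (median 1.56) in the other 15 libraries. Pcdha3 was at 4.63, 4.81 and 4.403 cpm in PWK/PhJ, 3.29, 3.05 and 3.01 cpm in CAST/EiJ and 2.97, 3.38 and 2.703 cpm in WSB/EiJ, and at 1.33 to 2.12 cpm (median 1.67) elsewhere. For both genes the PWK/PhJ libraries were above all others, and the CAST/EiJ and WSB/EiJ libraries overlapped with each other but not with the remaining 5 strains. The difference of PWK/PhJ from the other strains was 0.88 for Pcdha3 (SE 0.05, limma q = 9.1e-13) and 0.73 for Pcdha2 (SE 0.07, q = 2.1e-09) on the log2 scale. Pcdha8, in the middle of the subcluster, was at 5.37, 6.01 and 5.37 cpm in PWK/PhJ, 4.75, 4.52 and 4.81 cpm in CAST/EiJ and 5.704, 4.47 and 5.17 cpm in WSB/EiJ, against 1.999 to 3.48 cpm (median 2.83) in the other 15. Here the libraries of WSB/EiJ overlapped with those of PWK/PhJ and of CAST/EiJ.

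These 4 alpha genes were the members whose 9 wild-derived libraries all lay above the other 15, 4 of 56 against 0.506% of all genes tested. Pcdha1 reached the filter of 0.5 cpm through these strains, with a median of 0.248 cpm in the other 15, so the filter itself favours such a pattern and nothing is read from this count. Pcdhb9 and Pcdhb14 were the 2 members with all 9 below, against 1.16% of all genes. This grouping of strains was chosen after the values were seen and was not tested. Pcdha2 and Pcdha8 are named for it after their values were seen.

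Other alpha members differed in other ways. Pcdha7, the most abundant by length of the numbered alpha members without the Pcdha11 row, was at 6.79, 7.72 and 6.24 cpm in PWK/PhJ. It was at 3.43, 3.596 and 3.66 cpm in CAST/EiJ and 3.84, 4.35 and 3.81 cpm in WSB/EiJ. The PWK/PhJ libraries were above and those of CAST/EiJ below all others for this gene, and those of WSB/EiJ overlapped with A/J (4.21, 4.56 and 4.24 cpm). Of the wild-derived strains PWK/PhJ was called higher (log2 difference 0.50, q = 4.2e-08) and CAST/EiJ and WSB/EiJ lower (-0.41 with q = 7.8e-07, and -0.26 with q = 3.6e-04). The Pcdha11 row was highest in PWK/PhJ (11.9, 13.1 and 11.5 cpm) and CAST/EiJ (11.1, 11.4 and 12.4 cpm) and lowest in NOD/ShiLtJ (9.58, 9.37 and 8.71 cpm), with strain libraries that overlapped in between. Pcdha9 was at 3.52, 3.65 and 3.52 cpm in A/J, the lowest strain mean, and 5.89, 4.601 and 5.54 cpm in WSB/EiJ, the highest. Pcdha12, the last numbered gene before the C-type pair, was at 2.52, 2.71 and 2.37 cpm in CAST/EiJ and 3.52, 3.28 and 3.42 cpm in NZO/HlLtJ, and its F-test did not pass the Benjamini-Hochberg limit (adjusted p = 0.0248).

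The beta genes encode full proteins in a single exon, with their own short intracellular ends, and in some strains stretches of 3 or more neighbours were called in 1 direction. With 20 or 17 of 21 members called, stretches follow from the number alone, and no excess of them was tested. NOD/ShiLtJ and WSB/EiJ had none, and NZO/HlLtJ had 1 of 3 genes, of which 1 was called without replicate 1 of NZO/HlLtJ. In 129S1/Svlmj all 7 genes from Pcdhb2 to Pcdhb8 and all 13 from Pcdhb10 to Pcdhb22 were called higher, with log2 differences of 0.26 to 0.83 and 0.24 to 0.78, and 6 and 11 of these without replicate 3 of 129S1/Svlmj. In A/J the 10 genes from Pcdhb13 to Pcdhb22 were called higher (0.28 to 0.68) and so were Pcdhb8 to Pcdhb11 (0.24 to 0.66), with 2 of these 4 called without replicate 2 of A/J. In C57BL/6J the 6 genes from Pcdhb3 to Pcdhb8 were called lower (-0.54 to -0.34). The 9 genes from Pcdhb14 to Pcdhb22 were called lower in CAST/EiJ (-0.92 to -0.29), where Pcdhb4 to Pcdhb6 were called higher (0.17 to 0.49), 2 of the 3 without replicate 1 or replicate 3 of CAST/EiJ. In PWK/PhJ Pcdhb2 to Pcdhb5, Pcdhb9 to Pcdhb17 and Pcdhb19 to Pcdhb22 were called lower (-0.60 to -0.22, -0.94 to -0.23 and -0.68 to -0.34), 7 of the middle 9 without replicate 3 of PWK/PhJ, and Pcdhb8 between them was called higher (0.34, q = 3.6e-05).

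Pcdhb6 and Pcdhb3 lie in the 5′ part. Pcdhb6 was at 9.34, 9.902 and 9.79 cpm in 129S1/Svlmj, 8.16, 7.35 and 7.54 cpm in CAST/EiJ and 6.68, 6.69 and 6.62 cpm in WSB/EiJ. It was at 5.16, 5.99 and 5.43 cpm in PWK/PhJ, 4.901, 4.74 and 4.29 cpm in A/J, 4.104, 4.196 and 4.12 cpm in NOD/ShiLtJ, 3.81, 4.15 and 3.94 cpm in C57BL/6J and 3.81, 3.63 and 3.17 cpm in NZO/HlLtJ. The 129S1/Svlmj, CAST/EiJ, WSB/EiJ and PWK/PhJ libraries formed 4 groups in that order without overlap, all above the other 4 strains. 129S1/Svlmj was 1.87 times the mean of the other strains, a log2 difference of 0.83 (SE 0.05, limma q = 1.4e-12).

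Pcdhb3 was at 6.04, 6.18 and 6.58 cpm in 129S1/Svlmj, 4.79, 4.16 and 4.38 cpm in WSB/EiJ and 4.31, 3.74 and 4.24 cpm in A/J. Lower levels were found in NOD/ShiLtJ (3.41, 3.28 and 3.67 cpm), NZO/HlLtJ (3.001, 3.48 and 3.18 cpm), CAST/EiJ (2.996, 2.54 and 3.11 cpm), PWK/PhJ (2.72, 2.36 and 2.44 cpm) and C57BL/6J (2.51, 2.48 and 2.205 cpm). The 129S1/Svlmj libraries lay above the 21 others, a log2 difference of 0.78 (SE 0.05, limma q = 4.5e-11), and those of WSB/EiJ and A/J overlapped. The CAST/EiJ libraries, next to highest for Pcdhb6, overlapped with those of NZO/HlLtJ and PWK/PhJ for Pcdhb3.

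Pcdhb5 and Pcdhb7 had their lowest levels in C57BL/6J, the strain of the reference genome. Pcdhb5 was at 1.77, 1.79 and 2.14 cpm in C57BL/6J, below the other 21 libraries (2.34 to 5.11 cpm (median 3.13)), and was 0.5804 times the mean of the other strains, a log2 difference of -0.54 (SE 0.05, limma q = 1.1e-08). Pcdhb7 was at 3.83, 3.8005 and 3.97 cpm in C57BL/6J, below the others at 4.62 to 8.11 cpm (median 5.897), a log2 difference of -0.49 (SE 0.06, limma q = 6.6e-07). Both were highest in 129S1/Svlmj, at 4.48, 4.69 and 5.11 cpm for Pcdhb5 and 6.75, 7.97 and 8.11 cpm for Pcdhb7, and in each case these 3 libraries did not overlap with other strains.

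Of the 3′ part, Pcdhb16 and Pcdhb19 had another order of strains than Pcdhb6 and Pcdhb3, with A/J highest. Pcdhb14 and Pcdhb22 of that part were highest in 129S1/Svlmj, as were Pcdhb6 and Pcdhb3, and the parts were not compared by a test. Pcdhb16 was at 26.7, 29.6 and 32.1 cpm in A/J, 23.6, 22.9 and 25.2 cpm in 129S1/Svlmj and 23.2, 20.8 and 20.5 cpm in NZO/HlLtJ. It was at 20.7, 19.4 and 19.8 cpm in C57BL/6J, 19.8, 20.2 and 19.6 cpm in NOD/ShiLtJ and 20.6, 20.2 and 18.6 cpm in WSB/EiJ, and these libraries overlapped. The lowest were PWK/PhJ with 14.4, 14.3 and 13.98 cpm and CAST/EiJ with 9.65, 10.8 and 11.2 cpm, each apart from all others. A/J was higher than the mean of the other strains by 0.68 (log2, SE 0.05, limma q = 5.9e-11), 1.59 times their mean, and CAST/EiJ was at 0.497 times their mean, a log2 difference of -0.92 (SE 0.05, limma q = 4.8e-14).

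Pcdhb19 was at 29.2, 32.6 and 33.5 cpm in A/J, 27.8, 24.1 and 28.9 cpm in 129S1/Svlmj and 27.2, 23.6 and 24.2 cpm in NZO/HlLtJ. It was at 23.1, 22.7 and 23.99 cpm in C57BL/6J, 21.99, 23.4 and 20.2 cpm in NOD/ShiLtJ, 22.7, 21.5 and 21.1 cpm in WSB/EiJ, 17.2, 19.6 and 16.5 cpm in PWK/PhJ and 11.99, 12.8 and 13.7 cpm in CAST/EiJ. The CAST/EiJ libraries lay below the 21 others, a log2 difference of -0.84 (SE 0.06, limma q = 5.5e-12), and those of PWK/PhJ next, without overlap. Pcdhb17 ran from 11.6 ± 0.633 cpm (SD, n = 3) in CAST/EiJ to 27.3 ± 2.13 cpm (SD, n = 3) in A/J, and Pcdhb22, the last beta gene, from 9.22 ± 0.115 cpm in PWK/PhJ to 15.7 ± 0.136 cpm in 129S1/Svlmj.

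PWK/PhJ was lowest for Pcdhb14 and Pcdhb21. Pcdhb14 was at 6.24, 6.31 and 6.14 cpm in PWK/PhJ and 8.07, 9.82 and 9.19 cpm in CAST/EiJ, and at 16.8, 17.9 and 19.95 cpm in 129S1/Svlmj, its highest strain. The other libraries reached 8.07 to 19.95 cpm (median 12.6), so PWK/PhJ stood apart at 0.472 times the mean of the other strains, a log2 difference of -0.94 (SE 0.05, limma q = 1.5e-13). Pcdhb21 was at 4.34, 4.51 and 4.66 cpm in PWK/PhJ and 4.81, 6.11 and 5.099 cpm in CAST/EiJ, against 10.1, 10.7 and 11.5 cpm in A/J. The PWK/PhJ libraries were below the 21 others for this gene too, a log2 difference of -0.68 (SE 0.05, limma q = 1.4e-10).

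Counted together, 8 of 56 members had all 6 libraries of CAST/EiJ and PWK/PhJ below the other 18, against 3.71% of all genes tested. The count for this pair was made after its low beta sums were seen, so it restates them by gene and was not tested. The 8 members were Pcdhb14 to Pcdhb17 and Pcdhb19 to Pcdhb22, neighbours in the 3′ part of the beta subcluster with Pcdhb18 left out between them. Pcdhb20, for example, was at 5.33 to 6.08 cpm (median 5.68) in these 6 libraries and 7.69 to 12.3 cpm (median 8.93) in the others, and Pcdhb15 at 2.51 to 3.02 cpm (median 2.68) and 3.75 to 6.199 cpm (median 4.704). In the opposite direction, all 6 above the other 18, there were 0 of 56 members, against 2.82% of all genes. Pcdhb18, Pcdhb20 and Pcdhb15 are named after their values were seen.

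Pcdhb9 had another order of strains. It was at 8.34, 8.93 and 9.38 cpm in A/J, 7.04, 7.502 and 7.57 cpm in NOD/ShiLtJ, 7.28, 7.12 and 7.13 cpm in NZO/HlLtJ and 7.05, 6.18 and 7.17 cpm in C57BL/6J. It was at 5.66, 5.43 and 5.87 cpm in 129S1/Svlmj, where all the other beta genes tested were called higher, and at 4.15, 3.74 and 3.94 cpm in PWK/PhJ, 4.15, 3.44 and 3.99 cpm in WSB/EiJ and 2.94, 3.53 and 3.77 cpm in CAST/EiJ. The A/J libraries were above the 21 others, a log2 difference of 0.66 (SE 0.05, limma q = 1.0e-09), and the 3 wild-derived strains overlapped with each other below all the rest. In WSB/EiJ it was the beta member called lower (-0.51, q = 3.8e-08).

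Pcdhb1, under the filter with a mean of 0.226 cpm, was at 0.0138, 0.0258 and 0.0393 cpm in CAST/EiJ and 0.04595, 0.0513 and 0.0143 cpm in PWK/PhJ, which is 1 to 3 reads per library. The other 18 libraries had 0.1904 to 0.4699 cpm (median 0.2899), or 13 to 31 reads. The groups did not overlap, and no fold is given, because 3 reads are worth 0.0384 to 0.0521 cpm.

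**Figure D3:**
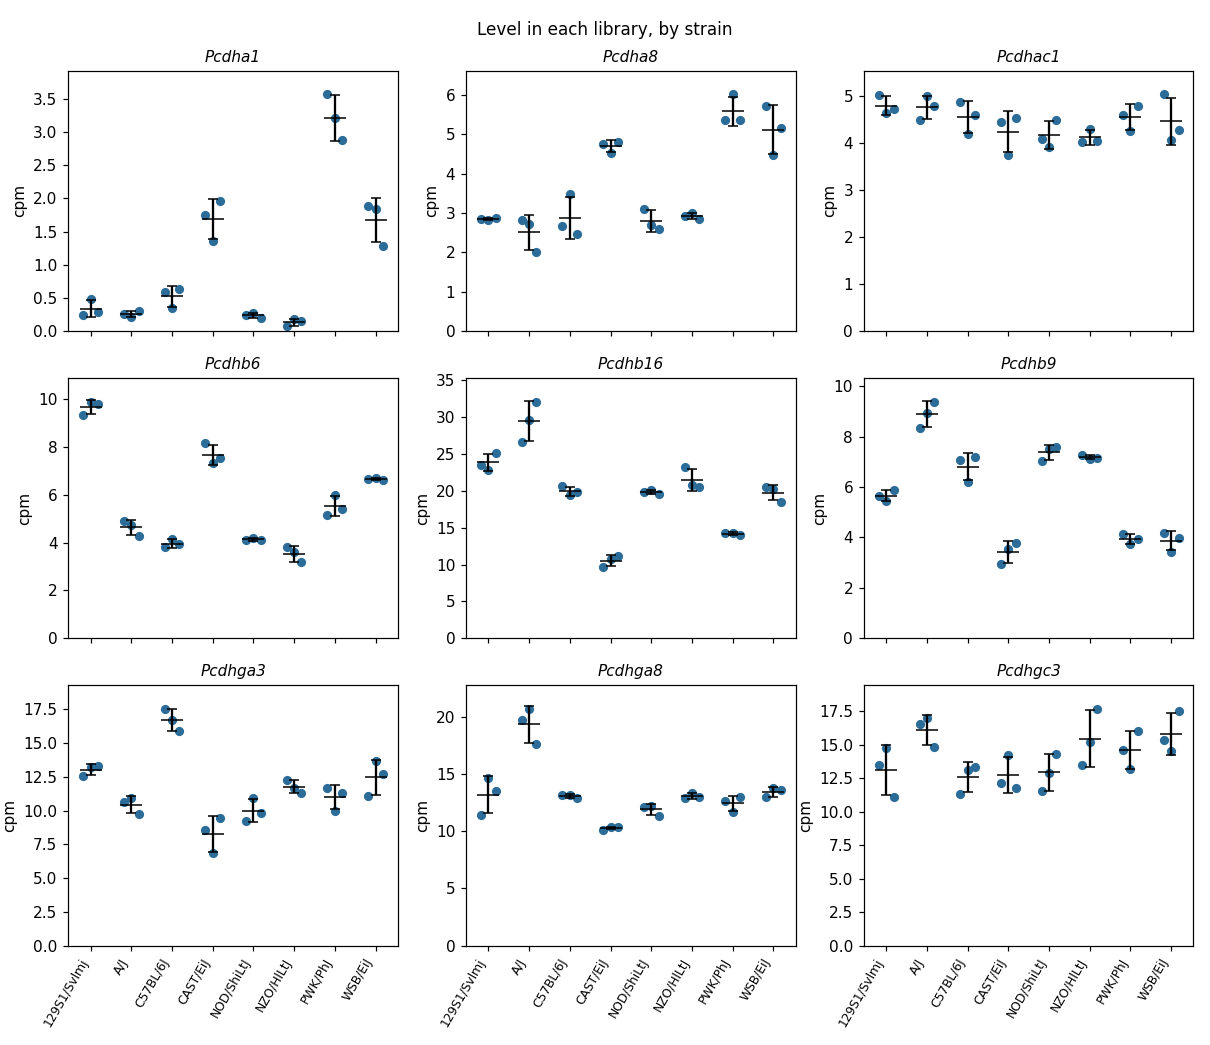
Level in cpm of 9 members in each of the 24 libraries by strain, with points for libraries, horizontal lines for strain means and error bars for the SD (n = 3). Pcdha1 and Pcdha8 are highest in CAST/EiJ, PWK/PhJ and WSB/EiJ, Pcdhb6, Pcdhb16 and Pcdhb9 each have another order of strains, Pcdhga3 is highest in C57BL/6J and Pcdhga8 in A/J, and the C-type Pcdhac1 and Pcdhgc3 overlap between strains.

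The gamma A and B genes share the constant exons of the gamma subcluster and are read from alternating promoters. In A/J 7 neighbours in a row, Pcdhga4, Pcdhgb2, Pcdhga5, Pcdhga6, Pcdhga7, Pcdhgb4 and Pcdhga8, were called higher, by 0.36 to 0.60 on the log2 scale. In C57BL/6J the 3 genes before them, Pcdhga2, Pcdhga3 and Pcdhgb1, were called higher (0.40 to 0.58). In CAST/EiJ the 5 genes from Pcdhga2 to Pcdhgb2 were called lower (-0.62 to -0.11), 4 of them when any 1 of its replicates was left out. The 3 genes from Pcdhga10 to Pcdhga11 were called higher there (0.12 to 0.18), 1 of them without replicate 1 of CAST/EiJ. In PWK/PhJ 3 genes from Pcdhga6 to Pcdhgb4 (-0.53 to -0.10) and 4 from Pcdhgb7 to Pcdhga12 (-0.23 to -0.11) were called lower. Without replicate 2 of PWK/PhJ 1 of these 4 was called, and without replicate 1 of A/J 2 of these 3. NOD/ShiLtJ had 3 called lower from Pcdhga4 to Pcdhga5 (-0.34 to -0.18), 2 of them without its replicate 1. Pcdhga8, shown in the plot of single libraries and chosen after its values were seen, was at 19.7, 20.7 and 17.6 cpm in A/J, above the 21 others at 10.1 to 14.7 cpm (median 12.9).

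Pcdhga3 was at 17.5, 16.7 and 15.9 cpm in C57BL/6J, 12.6, 13.2 and 13.3 cpm in 129S1/Svlmj, 11.1, 13.6 and 12.7 cpm in WSB/EiJ and 12.3, 11.7 and 11.3 cpm in NZO/HlLtJ. It was at 11.7, 9.98 and 11.3 cpm in PWK/PhJ, 10.6, 10.96 and 9.78 cpm in A/J, 9.23, 10.9 and 9.79 cpm in NOD/ShiLtJ and 8.56, 6.82 and 9.45 cpm in CAST/EiJ. The C57BL/6J libraries lay above the 21 others, 1.52 times the mean of the other strains, a log2 difference of 0.58 (SE 0.07, limma q = 1.9e-07), and the strains in between overlapped. Its neighbour Pcdhgb1 was at 17.2, 15.6 and 14.5 cpm in C57BL/6J and 8.19, 7.34 and 7.67 cpm in CAST/EiJ, with the other strains at 10.6 to 13.6 cpm. Here C57BL/6J was above and CAST/EiJ below all other libraries, with a log2 difference of 0.45 (SE 0.05, limma q = 1.5e-07) for C57BL/6J.

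Pcdhgb4, at 19.7, 19.5 and 18.6 cpm in A/J and 12.4 to 16.95 cpm (median 14.9) elsewhere, shows the stretch that was high in A/J. Its A/J libraries stood above all others (0.36, q = 2.8e-08). Pcdhgb5 lies past Pcdhga8 and was not called in A/J (18.5, 17.3 and 19.1 cpm, q = 0.0442). It was low in NOD/ShiLtJ at 14.5, 15.8 and 15.2 cpm, below the 21 others at 17.3 to 22.2 cpm (median 20.1), a log2 difference of -0.37 (SE 0.04, limma q = 4.1e-08). Pcdhga5 was at 5.89, 6.91 and 7.18 cpm in NOD/ShiLtJ, also below the others (7.25 to 11.8 cpm (median 8.32)), a log2 difference of -0.34 (SE 0.06, limma q = 8.6e-05).

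Pcdhga1, the first gamma gene, was highest in A/J at 11.8, 12.1 and 10.3 cpm and PWK/PhJ at 11.4, 11.5 and 10.4 cpm, and lowest in NOD/ShiLtJ at 7.69, 7.98 and 7.88 cpm, and other strains overlapped with these. Pcdhga10 was lowest in 129S1/Svlmj at 14.002 ± 0.869 cpm (SD, n = 3) and highest in A/J at 17.1 ± 0.115 cpm. Pcdhga12, the last A gene, ran from 10.9 ± 0.269 cpm in CAST/EiJ to 12.97 ± 0.523 cpm in A/J, the smallest span of the gamma subcluster (0.23 on the log2 scale). From Pcdhga9 to Pcdhga12, the 3′ part of the numbered genes, no member had strain means further apart than 0.42, against 0.94 for Pcdhga3.

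The 5 C-type members, whose first exons were unique over all their 31-base words, had smaller spans of strain means than the beta members tested. Small spans were not particular to them. Numbered members of their own subclusters lay within their range of 0.18 to 0.42, such as Pcdha12 (0.32), Pcdhga9 (0.26), Pcdhgb6 (0.26) and Pcdhga12 (0.23). Pcdhac1 ran from 4.13 ± 0.156 cpm (SD, n = 3) in NZO/HlLtJ to 4.799 ± 0.201 cpm (SD, n = 3) in 129S1/Svlmj, and Pcdhac2, known for the spacing of serotonergic axons, from 7.55 ± 0.606 cpm in CAST/EiJ to 9.603 ± 0.788 cpm in 129S1/Svlmj. Pcdhac2 was called lower in CAST/EiJ (-0.22, SE 0.06, q = 6.4e-04), where its libraries, 7.35, 8.23 and 7.07 cpm, overlapped with those of WSB/EiJ (8.18, 7.78 and 8.26 cpm) and A/J (9.77, 8.81 and 7.804 cpm). Without replicate 3 of CAST/EiJ the q-value was 0.0125, the highest of 31 alternatives (lowest 2.4e-04), and the call was lost.

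In the gamma subcluster Pcdhgc3 ran from 12.6 ± 1.11 cpm (SD, n = 3) in C57BL/6J to 16.1 ± 1.15 cpm (SD, n = 3) in A/J and Pcdhgc5 was lowest in 129S1/Svlmj at 4.08 ± 0.198 cpm and highest in WSB/EiJ at 5.297 ± 0.254 cpm. Pcdhgc4, the isoform known to keep developing interneurons alive, was lowest in 129S1/Svlmj at 7.13 ± 0.697 cpm (SD, n = 3) and highest in A/J at 9.85 ± 0.3003 cpm. It was called higher in A/J (0.26, SE 0.09, q = 0.00801), with libraries at 10.1, 9.99 and 9.51 cpm, within the range of the other strains (6.33 to 10.4 cpm (median 7.81)). The Pcdhgc4 call was lost without replicate 1, 2 or 3 of A/J, and it held in 14 of the 24 fits that left out a library and in 19 of 32 alternatives, over which the q-value was 0.002504 to 0.0419. Over the 8 comparisons, Pcdhac2 in CAST/EiJ and Pcdhgc4 in A/J were the calls among C-type members.

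Other genes in and around the locus, and the gene lists after them, were compared in the same fit. Their calls are counts that were not tested against those of all genes, whose shares called higher and lower were 26.6% and 22.8% in PWK/PhJ, 20.3% and 29.1% in CAST/EiJ, 12.7% and 21.9% in WSB/EiJ, 15.1% and 12.6% in A/J, 12.5% and 10% in C57BL/6J, 14.5% and 13% in 129S1/Svlmj, 14.9% and 9.14% in NOD/ShiLtJ and 12.7% and 13.2% in NZO/HlLtJ. Of 24 other genes inside the span of the members 11 were tested, with calls higher and lower of 4 and 3 in PWK/PhJ, 2 and 1 in CAST/EiJ, 3 and 3 in WSB/EiJ, 2 and 2 in A/J, 2 and 2 in C57BL/6J, 2 and 0 in 129S1/Svlmj, 0 and 1 in NOD/ShiLtJ and 0 and 1 in NZO/HlLtJ. Gm10544, a non-coding RNA on the opposite strand inside the span of Pcdhac2, was at 10.02 ± 0.681 cpm in CAST/EiJ and 1.79 ± 0.128 cpm in PWK/PhJ (SD, n = 3), the highest and lowest strain. The library kit keeps strand, but whether strand entered the counting is not given in the sources used here. The pseudogene AC020971.1 in the gamma subcluster ran from 3.38 ± 0.1301 cpm in PWK/PhJ to 6.62 ± 0.105 cpm in A/J.

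Of 28 protein-coding genes starting within 500 kb on either side, 23 were tested. Higher and lower calls numbered 6 and 2 in PWK/PhJ, 4 and 3 in CAST/EiJ, 0 and 3 in WSB/EiJ, 2 and 1 in A/J, 1 and 1 in C57BL/6J, 1 and 1 in 129S1/Svlmj, 2 and 1 in NOD/ShiLtJ and 2 and 1 in NZO/HlLtJ. Their median log2 difference was -0.0068 in 129S1/Svlmj and -0.0013 in CAST/EiJ, where that of the beta members was 0.37 and -0.41. The 2 with the largest F were Gnpda1 (1.94 ± 0.157 cpm in NOD/ShiLtJ, 4.32 ± 0.286 cpm in NZO/HlLtJ) and Dele1 (18.3 ± 0.677 cpm in 129S1/Svlmj, 30.3 ± 0.841 cpm in PWK/PhJ).

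Genes that act with the clustered protocadherins were followed in 4 lists. Of 18 genes for promoter choice and silencing, such as Ctcf, cohesin subunits, Dnmt3a and Smchd1, all were tested, and 12 passed the F-test with Benjamini-Hochberg adjustment, which 70.6% of all genes passed. The calls higher and lower were 1 and 4 in 129S1/Svlmj, 5 and 0 in A/J, 2 and 3 in C57BL/6J, 7 and 4 in CAST/EiJ, 1 and 0 in NOD/ShiLtJ, 1 and 2 in NZO/HlLtJ, 4 and 1 in PWK/PhJ and 0 and 2 in WSB/EiJ. The 2 with the largest F were Pds5a, a cohesin regulator (44.7 ± 0.585 cpm in PWK/PhJ, 60.7 ± 2.203 cpm in A/J), and Dnmt3a, a DNA methyltransferase (75.2 ± 9.42 cpm in CAST/EiJ, 112 ± 1.31 cpm in PWK/PhJ).

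Of 17 partners of the intracellular domains, 16 were tested and 9 passed, against 70.6% of all genes. Calls higher and lower were 1 and 2 in 129S1/Svlmj, 1 and 1 in A/J, 2 and 2 in C57BL/6J, 3 and 2 in CAST/EiJ, 0 and 2 in NOD/ShiLtJ, 1 and 0 in NZO/HlLtJ, 7 and 2 in PWK/PhJ and 2 and 7 in WSB/EiJ. Prkca, a protein kinase C that also marks rod bipolar cells, had the largest F and was lowest in A/J (57.3 ± 2.08 cpm) and highest in WSB/EiJ (189 ± 6.46 cpm), and Cyfip2, of the WAVE complex, was lowest in 129S1/Svlmj (51.4 ± 4.8001 cpm) and highest in PWK/PhJ (97.8 ± 3.296 cpm). Of 7 genes for cleavage by Adam10 and gamma-secretase, 3 passed (against 70.6%), with 0 and 2 in 129S1/Svlmj, 1 and 0 in A/J, 1 and 0 in C57BL/6J, 1 and 3 in CAST/EiJ, 2 and 0 in NOD/ShiLtJ, 1 and 0 in NZO/HlLtJ, 2 and 1 in PWK/PhJ and 0 and 3 in WSB/EiJ called higher and lower. Aph1b ran from 4.19 ± 0.344 cpm in PWK/PhJ to 7.51 ± 0.555 cpm in A/J and Psen2 from 3.46 ± 0.326 cpm in CAST/EiJ to 6.32 ± 0.5002 cpm in PWK/PhJ.

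The 12 non-clustered protocadherins are single genes elsewhere in the genome. Of these, 11 were tested and 7 passed (against 70.6% of all genes), with calls higher and lower of 5 and 0 in 129S1/Svlmj, 2 and 3 in A/J, 2 and 1 in C57BL/6J, 1 and 7 in CAST/EiJ, 0 and 2 in NOD/ShiLtJ, 1 and 3 in NZO/HlLtJ, 5 and 1 in PWK/PhJ and 2 and 1 in WSB/EiJ. Their median in CAST/EiJ was -0.18, while in PWK/PhJ it was 0.22, opposite in sign to the beta median of -0.42. Pcdh15, a protein of photoreceptors, ran from 114 ± 9.02 cpm in CAST/EiJ to 303 ± 9.45 cpm in PWK/PhJ, and Pcdh20 from 2.15 ± 0.1701 cpm in NZO/HlLtJ to 6.06 ± 0.476 cpm in 129S1/Svlmj.

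Markers of retinal neurons were present in each strain. The 6 amacrine markers, led by Pax6, summed to 227 ± 1.94 cpm in NZO/HlLtJ to 263 ± 11.04 cpm in WSB/EiJ. The 6 starburst amacrine markers, led by Isl1, summed to 55.6 ± 1.49 cpm in CAST/EiJ to 65.8 ± 1.51 cpm in NZO/HlLtJ. Isl1, at 41.9 ± 2.65 cpm in NZO/HlLtJ, set this order, so it is not an order of the list as a whole. By calls, 4 of the 6 were higher and 1 lower in PWK/PhJ, against 1 higher and 2 lower in NZO/HlLtJ. The 4 horizontal cell markers, led by Calb1, summed to 23.6 ± 0.912 cpm in NZO/HlLtJ to 31.1 ± 0.6599 cpm in C57BL/6J. The 7 ganglion cell markers, led by Nefl, summed to 150.4 ± 1.53 cpm in CAST/EiJ to 247 ± 13.8 cpm in C57BL/6J. In CAST/EiJ, which had the lowest beta sum, the ganglion cell sums were 149.5, 149 and 152 cpm, and 6 of 7 ganglion cell markers were called lower. In PWK/PhJ, with the next lowest beta sum, they were 224, 217 and 199.6 cpm, with 3 of 7 called higher and 1 lower. None of the markers of these 4 neuron lists was at 0 in all 3 libraries of a strain, and the part of cell numbers in the protocadherin differences was not tested.

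Bipolar markers summed to 411 ± 10.5 cpm in C57BL/6J to 574 ± 39.8 cpm in WSB/EiJ, cone markers to 195 ± 6.19 cpm in CAST/EiJ to 314 ± 5.42 cpm in PWK/PhJ and Muller glia markers to 756 ± 19.9 cpm in WSB/EiJ to 1002 ± 27.8 cpm in NOD/ShiLtJ. Sums follow their most abundant markers, and single markers can have another order. Endothelial markers, led by Kdr, gave 61.5 ± 6.12 cpm in WSB/EiJ to 104 ± 3.902 cpm in CAST/EiJ, where 4 of 5 were called lower. Microglial markers gave 2.88 ± 0.197 cpm in CAST/EiJ to 6.17 ± 0.227 cpm in A/J, blood markers 12.3 ± 1.04 cpm in CAST/EiJ to 28.5 ± 3.45 cpm in NOD/ShiLtJ and pigment epithelium markers 14.3 ± 1.73 cpm in CAST/EiJ to 62.7 ± 18.8 cpm in WSB/EiJ. Of the 6 pigment epithelium markers tested, 5 were called lower in PWK/PhJ and 6 in CAST/EiJ, while 4 were called higher in A/J, 3 in WSB/EiJ and 2 in 129S1/Svlmj. Whether the strain differences of the members are tied to such tissue was not tested. Best1 of the pigment epithelium was at 0 in all 3 libraries of A/J and of WSB/EiJ.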

How the data were processed

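Retinal RNA was sequenced in 24 stranded libraries after ribosomal depletion. STAR was used by the authors, after removal of poor base calls, to align to GRCm38/mm10, and Partek Flow to quantify genes by expectation maximization, with versions not given in the sources used here. The deposited values are cpm, made by the authors from each gene's count over all reads of the library, with 0.0001 added. Between 87.4% and 89.8% of values under 20 reads were whole numbers of reads (within 0.02), so tests for counts were not used. Strains came from the labels, and the study's methods treat each library as a biological replicate.

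Genes whose mean reached 0.5 cpm (16,400) were fitted as log2(cpm + 1) with limma 3.58.1 in R 4.3.3 (trended eBayes, two-sided), a scale that understates differences of low genes. Calls were Storey q-values under 0.01 over these genes. Tables were made with Python 3.11.15 and pandas 2.3.3, figures with matplotlib 3.10.9, and the fit was tested on simulated data. Few genes changed in that simulation, so it did not examine calls where most genes differ between strains, as they do here. Alternatives were a pseudocount of 0.1, no filter, median-ratio scaling, quantile normalization, Benjamini-Hochberg adjustment, ordinary analysis of variance, comparators without CAST/EiJ and PWK/PhJ, sums per kb, leaving out each library and, chosen after the data were seen, leaving out the 3 libraries richest in lens RNA.

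Named members are the 5 C-type members, in each subcluster the 3 numbered members with the highest mean and the first and last, for each strain up to 2 in each direction with the largest differences among members called whose 3 libraries lie apart from the other 21, and any below the filter. Of the 4 pathway lists the 2 genes with the largest F and any gene with libraries apart by over 1 on the log2 scale are named, and of neighbours the 2 with the largest F inside and outside the span. All marker lists but 1 are given by sums. Members and lists were chosen with earlier results of these data known.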

Additional observations from a re-analysis of the deposited data

How the results depend on the processing

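The numbers of members called, higher and lower together, in the 8 strain comparisons stayed within 1.5 times under a pseudocount of 0.1, no filter, median-ratio scaling, quantile normalization, the Benjamini-Hochberg adjustment, ordinary analysis of variance, the lens-poor set of libraries chosen after seeing the data and, for the 6 strains concerned, comparators without CAST/EiJ and PWK/PhJ. These numbers pool the directions, whose balance changed with the comparators without CAST/EiJ and PWK/PhJ. Members called higher and lower were then 0 and 9 in NZO/HlLtJ, in place of 6 and 6, and 13 and 12 in WSB/EiJ, in place of 16 and 3. The beta calls of 129S1/Svlmj, A/J, CAST/EiJ and PWK/PhJ and the alpha calls of PWK/PhJ had the same numbers in each direction under both scalings. Over fits that left out 1 library the ranges of members called were 6 to 14 (NZO/HlLtJ), 12 to 19 (NOD/ShiLtJ), 13 to 19 (WSB/EiJ), 17 to 21 (C57BL/6J), 20 to 28 (129S1/Svlmj), 26 to 37 (A/J), 29 to 36 (PWK/PhJ), 34 to 43 (CAST/EiJ), and 56 members passed the F-test each time. The low end for NZO/HlLtJ came without its replicate 1, and the cause was not tested. The 17 differences named as the largest among members with libraries apart kept their direction and passed the threshold in all 538 refits. They were chosen for size and separation in these same libraries, so this is not used as support for them. Pcdha1 in PWK/PhJ and in NZO/HlLtJ is among them. Other calls given above, such as Pcdhgc4 in A/J and Pcdhac2 in CAST/EiJ, were lost in at least 1 fit. With median-ratio scaling the alpha sum of WSB/EiJ was 61.8 cpm in place of 60.4, the beta sum of NOD/ShiLtJ 174 cpm in place of 178, and the gamma sums of CAST/EiJ and WSB/EiJ 244 and 273 cpm in place of 239.7 and 267. These moved by over 1 SD through the scaling factors, and the other 20 sums moved by less, as did all 24 over the mean of the strains when summed per kb. Both scalings shifted the median of all genes by at most 0.036 on the log2 scale.

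Each strain rests on 3 libraries, members near the filter rest on about 28.8 to 39.1 reads, and alpha and gamma values depend on how reads of constant exons were divided. Reads of all strains were aligned to the C57BL/6J genome, and bias from strain variants could not be assessed.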
